A study of Mus musculus with 12 samples.

Results

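Fibroblasts from mouse embryos, the cells that lay down connective tissue, were compared after 24 h with 50 µM apigenin and without treatment. Of the 12 samples of the series, 8 enter this comparison, 4 treated with apigenin and 4 kept in control medium, and the other 4 were treated with chrysin at the same dose and time. Chrysin is a flavone that lacks a hydroxyl group which apigenin, a flavone of plants such as parsley and chamomile, carries on its B ring. Per the labels the cells were of embryonic stage, grown in T75 flasks and passaged up to the 5th passage, beyond which their growth slows. The sources used here do not say whether solvent was added to the control medium, and the flavone and any solvent cannot be told apart here. The genes were those of the deposited table whose mean normalized read count over all 12 samples was at least 10, which kept 12198 of 24458. Levels are log2 of the normalized read count plus 1, and a change is apigenin minus untreated on that scale, given with its standard error. Adjusted p-values come from limma over all 12198 genes, and a gene was said to rise or fall at an adjusted p under 0.05.

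The fibroblast builds and remodels the extracellular matrix, pulls on it through actin and integrins, and makes its own cholesterol when the supply from outside is short. The transcription factor NRF2 is held back by KEAP1 and, once freed by electrophiles or oxidants, drives genes of glutathione, thioredoxin and heme metabolism through antioxidant response elements. MTF1 does the same for metallothioneins when zinc is plentiful, and SREBP2 for sterol synthesis when membrane cholesterol is low.

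Untreated libraries held 4865169 to 12871962 reads and apigenin libraries 6651676 to 15512632. A count of 0 allowed up to 3 reads, a normalized count of 1.44 to 5.13 over the 8 libraries, which covers counting error only. The apigenin libraries formed 2 pairs. Across genes, replicates 1 and 3 correlated at 0.9834 and replicates 2 and 4 at 0.9874, while the correlations between the pairs were 0.9468 to 0.9512, against 0.9750 to 0.9876 among untreated libraries. The labels give no reason for the division, so for a gene whose change differed by at least 1 between the pairs, the 4 treated samples or the change in each pair are given, with replicates 1 and 3 first. All 14 fibroblast markers passed the filter, among them Col1a1 at 15.22 to 15.47 in untreated samples. Of the other cell types, none of 7 epithelial and 6 skeletal muscle markers did, and their summed normalized counts stayed at or under 27.8 in every sample. Pecam1 and Cdh5 (endothelial) and C1qa, Aif1 and Cd52 (macrophage and leukocyte) were below the filter too. Of the 7 of 10 macrophage and leukocyte markers that passed it, Cd68, Laptm5 and Cd14 rose by 1.46, 1.13 and 2.05 and none fell. The call of Cd14 was lost without untreated replicate 2 or 3 (2.07 and 1.76) or apigenin replicate 2 (1.93). The sum of the list was 1089 to 1256 untreated and 1699 to 2144 with apigenin. Its part in the results was not tested. Of 8 pericyte and smooth muscle markers 5 fell, of 6 neural and glial markers 3 fell and 1 rose, of 3 endothelial markers 2 fell and 1 rose, of 3 cartilage and bone markers 2 fell, the 1 tested adipocyte marker fell and the 1 tested pluripotency marker was not called, with Pou5f1 and Zfp42 at 0. The labels leave out whether replicates were separate cultures, and the p-values therefore reflect only how these samples vary, possibly for technical reasons.

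Antioxidant, metallothionein and heme breakdown genes stood out among the rises and matrix genes among the falls. In all, 2807 genes rose (23.0%) and 2824 fell (23.2%), and the median change of all genes was 0.01. Counts of listed genes given below are to be read beside these shares. By at least 1 on the log2 scale, 738 rose (6.05%) and 1062 fell (8.71%). All 4 apigenin values were above all 4 untreated values in 22.2% of genes and below them in 22.8%. By at least 3, 101 genes fell and 40 rose. The 318 genes that fell by at least 2 took 3.72% to 3.8% of the reads of an untreated library and 0.464% to 0.713% of an apigenin library, and the 155 that rose as much went from 0.103% to 0.115% up to 0.733% to 1.04%. Every called gene had the same sign in both pairs of apigenin libraries. This follows largely from the call itself, since the standard error grows with the difference between the pairs, and it is no separate sign of agreement. The change was further from 0 in replicates 2 and 4 for 2224 of the rises and 2075 of the falls.

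**Figure D1:**
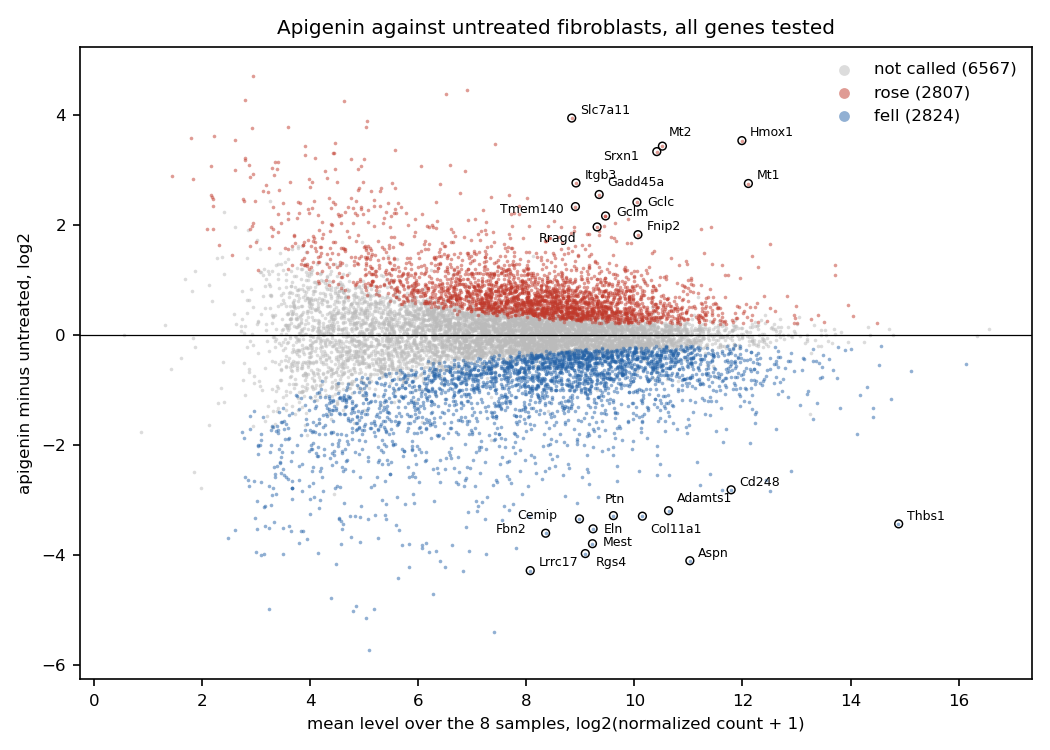
Change with apigenin (vertical axis, log2) against the mean level over the 8 samples (horizontal axis, log2 of the normalized count plus 1), 1 point per gene tested. Red points rose (2807), blue points fell (2824) and grey points were not called (6567), and circles mark the 24 genes with the widest gap between the groups, which lie between 1.83 and 3.95 above and between -2.81 and -4.28 below.

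The 12 rises with the widest gap between the groups were Slc7a11, Hmox1, Srxn1, Mt2, Mt1, Gclc, Gclm, Itgb3, Gadd45a, Tmem140, Rragd and Fnip2. The 12 falls were Aspn, Eln, Col11a1, Thbs1, Ptn, Adamts1, Rgs4, Mest, Lrrc17, Cd248, Cemip and Fbn2. The empty interval between the highest sample of the lower group and the lowest sample of the higher group was 1.59 to 3.62 for the rises and 2.40 to 3.43 for the falls. For some of these genes the 4 apigenin samples lay together, and for others they divided. Mt1, a zinc-binding metallothionein, stood at 10.78, 10.78, 10.67 and 10.69 in untreated replicates 1 to 4 and at 13.49, 13.48, 13.52 and 13.46 in apigenin replicates 1 to 4. Its treated samples were closer to each other than the untreated ones were. Lrrc17, a secreted leucine-rich repeat protein, stood at 10.51, 10.15, 10.15 and 10.04 untreated and at 6.91, 4.81, 7.38 and 4.64 with apigenin. It was low in all 4 treated samples and lowest in replicates 2 and 4 (-4.28 ± 0.57, adjusted p = 0.000128).

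**Figure D2:**
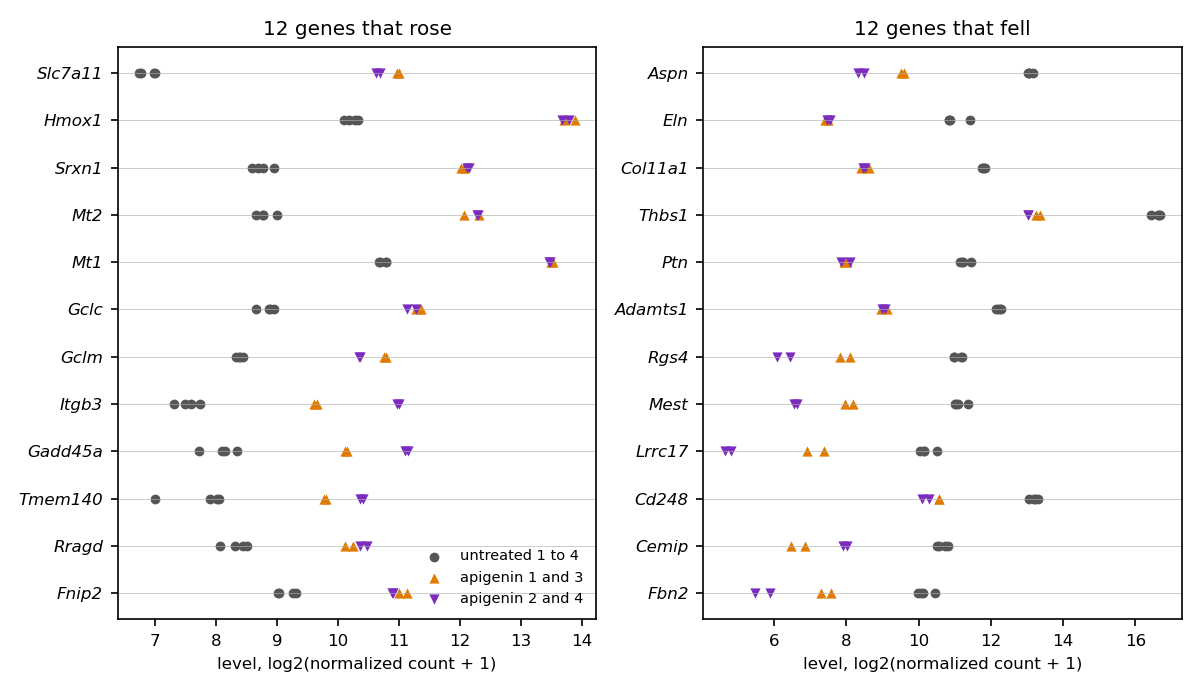
Level (log2 of the normalized count plus 1) of the 24 genes with the widest gap between groups, 1 symbol per sample, with untreated samples as grey circles, apigenin replicates 1 and 3 as orange upward triangles and replicates 2 and 4 as purple downward triangles. In every row an empty interval of 1.59 to 3.62 divides the groups. The triangles divide as well in Itgb3, Aspn, Rgs4, Mest, Lrrc17, Cemip and Fbn2, and by less in Gadd45a and others.

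Genes of cystine uptake and glutathione synthesis rose together with apigenin, while several glutathione peroxidases fell. Slc7a11, the cystine carrier of the exchanger called system xc-, stood at 6.76, 7.00, 6.74 and 6.98 in untreated replicates 1 to 4 and at 10.99, 10.62, 10.96 and 10.68 in apigenin replicates 1 to 4. All 4 treated samples were far above the untreated ones, a 15.4-fold difference (3.95 ± 0.11, adjusted p = 2.4e-14). Its partner chain Slc3a2 rose less (1.35 ± 0.10). In the next steps, Gclc and Gclm, the catalytic and modifier subunits of glutamate-cysteine ligase, rose by 2.42 ± 0.09 and 2.17 ± 0.12, and glutathione synthetase (Gss) by 1.31 ± 0.10. Glutathione reductase (Gsr), which recycles the oxidised form, rose by 0.80 ± 0.10. Among users of glutathione, the peroxidases Gpx1 (-0.72 ± 0.10), Gpx3 (-0.88 ± 0.19) and Gpx8 (-0.35 ± 0.09) were among those that fell, and Gpx4, which acts on lipid peroxides, was at 0.09 and not called. In all, 8 of 15 members of this list rose and 4 fell, with a median of 0.57.

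Of 16 thioredoxin and peroxiredoxin genes 7 rose and 3 fell, and of 11 genes of the pentose phosphate pathway and NADPH supply 3 rose and 3 fell, near the shares over all genes, with a median of 0.10 (0.01 to 0.23 with 1 library left out). Srxn1, the sulfiredoxin that reactivates overoxidised peroxiredoxins, stood at 8.94, 8.76, 8.59 and 8.68 untreated and at 12.01, 12.15, 12.07 and 12.12 with apigenin. It was higher in every treated sample by more than 3 (3.34 ± 0.09, adjusted p = 2.4e-14). Thioredoxin reductase 1 (Txnrd1) rose by 1.45 ± 0.13, peroxiredoxin 1 (Prdx1) by 1.27 ± 0.07 and peroxiredoxin 6 (Prdx6) by 0.89, whereas Prdx2 and the superoxide dismutases Sod2 and Sod3 fell, by 0.36, 0.42 and 0.80. Of the enzymes that make NADPH, the 2 oxidative dehydrogenases of the pentose phosphate pathway, G6pdx (1.08 ± 0.14) and Pgd (1.97 ± 0.14), rose with the transaldolase Taldo1 (1.17 ± 0.11). Cytosolic isocitrate dehydrogenase (Idh1, -1.28 ± 0.28), malic enzyme (Me1, -0.44) and the folate enzyme Aldh1l1 (-1.04) fell. Idh1 stood at 11.11 to 11.34 untreated and at 10.57, 9.25, 10.53 and 9.26 with apigenin.

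Of 11 regulators of this response 5 rose and 2 fell. Nfe2l2, which encodes NRF2, rose by 0.66 ± 0.08, its partner Mafg by 1.28 ± 0.12 and the autophagy receptor Sqstm1, which binds KEAP1, by 1.66 ± 0.10. Keap1 (-0.08) and the repressor Bach1 (0.06) were not called, and Bach2, a related repressor, fell by 1.40 ± 0.22. The core of the antioxidant response element, TGACNNNGC on either strand, occurred in the promoter window of 14.7% of the 9751 tested genes with a RefSeq window, which runs from 250 bases before to 50 after the start. It occurred in 14.9% of the windows of genes that rose, in 14% of those that fell and in 2 of the 13 of the cystine and glutathione list. One of these was Gclm, which rose, and the other was Ggct, which was not called (0.32). The window of Gclm is shown with the core in capitals, beginning 134 bases before the start (RefSeq, GRCm38.p6, chr3:122245307-122245606, plus strand).
Gclm: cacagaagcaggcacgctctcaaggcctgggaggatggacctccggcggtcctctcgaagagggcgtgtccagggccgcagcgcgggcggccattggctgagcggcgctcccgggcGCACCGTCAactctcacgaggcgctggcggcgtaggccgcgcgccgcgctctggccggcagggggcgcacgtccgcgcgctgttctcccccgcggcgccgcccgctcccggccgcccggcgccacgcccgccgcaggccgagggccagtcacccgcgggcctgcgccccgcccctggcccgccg

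Some genes of heme breakdown rose together with genes of iron export and storage. Hmox1, the inducible heme oxygenase that opens the heme ring and frees its iron, stood at 10.09, 10.17, 10.28 and 10.33 untreated and at 13.70, 13.78, 13.88 and 13.68 with apigenin. The groups were 3.36 apart at their nearest samples. The heme carrier Slc48a1 rose by 1.29 ± 0.08 and biliverdin reductase B (Blvrb) by 1.27 ± 0.11. Ferroportin (Slc40a1), the exporter of iron, stood at 5.56, 7.03, 6.50 and 6.48 untreated and at 9.03, 8.99, 8.72 and 9.09 with apigenin (2.56 ± 0.26, adjusted p = 8.67e-07), with no overlap although the untreated samples varied. Ferritin heavy chain (Fth1) rose by 1.10 ± 0.15 and light chain (Ftl1) by 1.27 ± 0.13, the latter with near-identical copies that make its level uncertain. The transferrin receptor Tfrc, which brings iron in, fell by 0.41 ± 0.15, a call that was lost without untreated replicate 1 (-0.32) or 3 (-0.42) or apigenin replicate 2 or 4 (-0.39 each). The iron sensors Aco1 and Ireb2 fell by 0.55 and 0.51. Of 18 members, 8 rose and 4 fell, with a median of 0.10 (0.07 to 0.17 with 1 library left out).

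Both metallothioneins and 4 zinc transporters rose, and 3 others fell. The median over the 15 tested members of the list was 0.08 (0.04 to 0.15 with 1 library left out). Mt2 stood at 9.00, 8.77, 8.77 and 8.65 untreated and at 12.07, 12.30, 12.31 and 12.28 with apigenin, a 10.9-fold rise (3.44 ± 0.12, adjusted p = 6.26e-13). Its 4 treated samples were all above 12, as were those of Mt1 (2.76 ± 0.09). The zinc exporter Slc30a1 rose by 1.44 ± 0.22, from 6.68 to 6.96 untreated to 7.82, 8.72, 7.62 and 8.76 with apigenin. Slc30a4, which moves zinc into vesicles, rose by 1.16 ± 0.11, and the importers Slc39a8 and Slc39a14 by 1.14 and 0.98. The importer Slc39a10 fell by 1.46 ± 0.13. Mtf1, the zinc sensor, rose by 0.82 ± 0.12. The pattern searched for as the metal response element, TGCNCNC on either strand, is short and loose. It lay in 60.7% of all windows, in 27.5% at least 2 times. It was in 62.5% of the windows of genes that rose, 60.9% of those that fell and 11 of the 13 of this list. The window of Mt1 held 3 copies, of which the first base was 23 bases before the RefSeq start and 2 and 20 bases after it. It is shown with these copies in capitals, since its treated samples varied little (RefSeq, GRCm38.p6, chr8:94178839-94179138, plus strand).
Mt1: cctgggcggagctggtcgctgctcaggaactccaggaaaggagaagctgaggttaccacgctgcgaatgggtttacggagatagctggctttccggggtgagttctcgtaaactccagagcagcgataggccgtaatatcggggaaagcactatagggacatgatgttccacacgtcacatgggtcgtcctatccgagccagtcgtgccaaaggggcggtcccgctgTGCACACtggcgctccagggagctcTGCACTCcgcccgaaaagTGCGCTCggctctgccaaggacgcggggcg

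Enzymes that conjugate and pumps that expel foreign compounds rose in part. Of 25 members, 11 rose and 5 fell, with a median of 0.32. The efflux pumps Abcc4 (1.89 ± 0.14), Abcb1a (1.96 ± 0.32, with 1.29 and 2.63 in the pairs) and Abcc1 (1.09) rose, with the glutathione transferases Mgst1 (1.20 ± 0.12) and Gstm1 (1.06, with 1.71 and 0.40 in the pairs) and the carbonyl reductase Cbr3 (1.28 ± 0.20), while Mgst3 fell by 0.85 ± 0.14. The quinone reductase Nqo1, a target of both NRF2 and the aryl hydrocarbon receptor, stood at 8.02 to 8.15 untreated and at 10.41, 8.96, 10.62 and 8.92 with apigenin (1.63 ± 0.34, adjusted p = 0.00218). Every treated sample was above every untreated one, and replicates 1 and 3 were far above replicates 2 and 4. Ahr, the receptor itself, fell by 1.57 ± 0.23 and its repressor Ahrr by 1.98 ± 0.44, with -0.90 in replicates 1 and 3 and -3.07 in replicates 2 and 4. Cyp1b1, an oxidase it induces, went from 11.68 to 11.81 untreated to 12.04, 10.39, 11.87 and 10.43, on either side of the untreated samples (adjusted p = 0.207). Cyp1a1, another oxidase it induces, was too rare to compare, with at most 3 reads in a library.

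All 20 tested genes of sterol synthesis fell, 17 of them by at least 1, and in all 20 the treated samples lay below all untreated ones. Their median change was -1.59, and the first pair of libraries (1 and 3) gave -1.26 and the other (2 and 4) -1.92. Within the untreated group, replicate 1 had the highest level of all 20, so the fall is larger against it than against the others. Along the path from acetyl-CoA to cholesterol the size of the fall varied. At the entry, Hmgcs1, which makes HMG-CoA, stood at 8.16, 7.85, 7.31 and 7.58 untreated and at 5.66, 4.70, 5.52 and 4.40 with apigenin (-2.66 ± 0.28, adjusted p = 1.2e-06). The nearest samples of the groups were 1.65 apart, and replicates 2 and 4 were lowest. The isomerase Idi1 (-2.75 ± 0.39, with -1.89 and -3.61 in the pairs) and lanosterol synthase Lss (-2.58 ± 0.20) were with Hmgcs1 the members that fell most, with Lss at 8.09, 7.46, 8.31 and 7.10 against 10.20 to 10.60. After the sterol ring is closed, the demethylase Cyp51 fell by 1.66 ± 0.13. The smallest falls were late in the path, in the isomerase Ebp (-0.69 ± 0.17) and the desaturase Sc5d (-0.75 ± 0.10), and the reductase Dhcr7 fell by 1.28 ± 0.13.

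**Figure D3:**
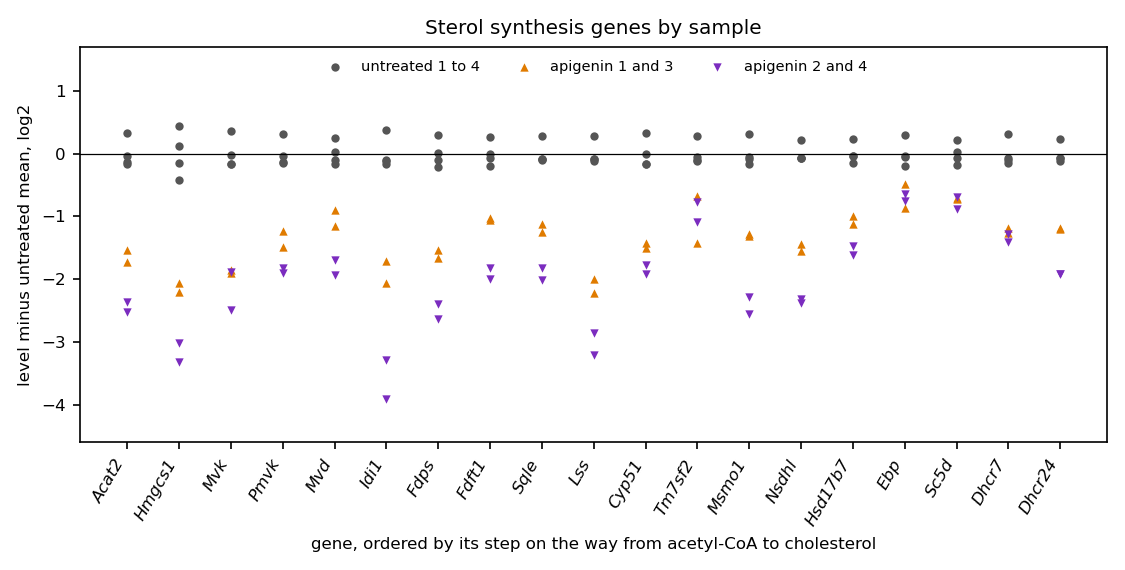
Level of each of 19 of the 20 sterol synthesis genes minus its untreated mean (vertical axis, log2), 1 symbol per sample, with genes in the order of their steps toward cholesterol (horizontal axis). All apigenin symbols lie below all untreated symbols of their gene, the purple ones of replicates 2 and 4 lowest in 15 of the 19, and the falls are deepest at Idi1, Hmgcs1 and Lss (-2.75, -2.66 and -2.58) and shallowest at Ebp (-0.69).

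The sterol response element TCACNCCAC was found in 1.04% of all windows, 1.23% of those of genes that rose and 1.37% of those that fell. Among changes of at least 1 the shares were 2.24% and 1.69%. None of the 10 windows of sterol regulation and uptake or the 12 of fatty acid synthesis held it. Of the 15 windows of sterol synthesis genes 1 held it, that of Hmgcs1. Its capitals begin 137 bases before the start (RefSeq, GRCm38.p6, chr13:119690101-119690400, plus strand).
Hmgcs1: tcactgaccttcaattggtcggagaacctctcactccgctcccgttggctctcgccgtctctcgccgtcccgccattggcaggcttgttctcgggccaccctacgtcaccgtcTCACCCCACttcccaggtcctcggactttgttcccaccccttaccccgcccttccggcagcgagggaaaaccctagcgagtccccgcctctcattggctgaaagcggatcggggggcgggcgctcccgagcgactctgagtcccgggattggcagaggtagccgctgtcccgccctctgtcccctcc

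Of 15 genes of sterol regulation and uptake 6 fell and 3 rose. Srebf2, which encodes SREBP2, fell by 1.25 ± 0.20, its retention factor Insig1 fell by 1.01 ± 0.13 and the sterol carrier Stard4 fell by 2.35 ± 0.33 (-1.59 and -3.11 in the pairs), whereas Scap, the escort of SREBP2, rose by 0.77 ± 0.12 and the esterifying enzyme Soat1 by 0.64. Among LXR targets, which export cholesterol, Apoe fell by 1.74 ± 0.20 and Abca1, the main cholesterol exporter, was at 0.02 ± 0.18 (adjusted p = 0.932). Of 15 fatty acid synthesis genes, 11 fell and 1 rose, with acetyl-CoA synthetase Acss2 at -2.03 ± 0.30, the elongase Elovl6 at -1.83 ± 0.23 and ATP citrate lyase Acly at -0.77 ± 0.09. On the side of use and storage, Cpt1a, which admits fatty acids to mitochondria, rose by 0.81 ± 0.09 and the lipid droplet coat Plin2 by 1.93 ± 0.23 (1.40 and 2.47 in the pairs). Of 20 oxidation genes 5 rose and 5 fell, near the shares over all genes (23.0% and 23.2%), with a median of 0.05. Among them Acsl1, which activates fatty acids, was at 1.06 and the isomerase Eci1 at -1.25. The desaturases Scd1 and Fads1 fell by 1.34 and 0.71, with Scd1 at -0.80 and -1.88 in the pairs.

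Matrix genes fell across fibrillar collagens, elastic fibres, small proteoglycans and matricellular proteins, with a few opposite members. Of 26 collagens 16 fell and 2 rose, of 17 elastic fibre genes 13 fell and none rose, of 23 proteoglycan and hyaluronan genes 15 fell and 3 rose, and of 27 matricellular and adhesive glycoproteins 19 fell and 3 rose. The medians were -0.68, -0.65, -0.95 and -0.92. Col11a1, a minor fibrillar collagen that sets fibril width, stood at 11.80, 11.84, 11.75 and 11.78 untreated and at 8.63, 8.47, 8.41 and 8.51 with apigenin. Both groups were tight and 3.12 apart at the nearest samples (-3.29 ± 0.08, adjusted p = 8.3e-15). Col8a1 and Col5a2 fell by 2.31 ± 0.08 and 1.08 ± 0.07. Col11a2, the partner chain of Col11a1, went the other way from 4 to 20 reads untreated to 28 to 149 (2.43 ± 0.38). The untreated samples of Col11a2 alone averaged below the filter. The main fibrillar chains Col1a1 and Col1a2 fell by 1.15 ± 0.10 and 1.33, and Col3a1 by 2.84 ± 0.32, with treated samples at 11.83, 10.44, 11.79 and 10.32. The basement membrane chains Col4a1 (0.16) and Col4a2 (0.15) were not called.

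Eln, the elastin precursor, stood at 11.42, 10.85, 10.87 and 10.84 untreated and at 7.49, 7.47, 7.40 and 7.55 with apigenin. The treated samples lay close together and the groups were 3.29 apart at their nearest samples (-3.52 ± 0.14, adjusted p = 2.5e-12). The microfibril protein Fbn2, prominent in embryonic tissue, fell by 3.60 ± 0.41 (-2.71 and -4.48 in the pairs) and its relative Fbn1 by 0.80. The microfibril-associated Mfap4 and Mfap2 fell by 3.11 (-2.31 and -3.91) and 2.61 (-1.89 and -3.33). Among the small leucine-rich proteoglycans that coat collagen fibrils, Aspn stood at 13.02 to 13.18 untreated and at 9.59, 8.33, 9.50 and 8.48 with apigenin, a 17.1-fold fall, and Ogn (-2.81 ± 0.13), Omd (-3.20 ± 0.20), Lum (-3.21) and Dcn (-2.70) fell as well. Lum was at -2.56 and -3.86 in the pairs and Dcn at -1.71 and -3.68. Expression of Cemip, a gene of hyaluronan breakdown, fell from 10.52 to 10.82 untreated to 6.86, 8.03, 6.47 and 7.90, here lowest in replicates 1 and 3. The 3 that rose were the hyaluronan receptor Cd44 (0.49, and 0.40 and not called without apigenin replicate 2), the hyaluronidase Hyal1 (1.06) and the glypican Gpc1 (1.08).

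Thbs1, the adhesive glycoprotein thrombospondin 1, stood at 16.44, 16.63, 16.66 and 16.69 untreated and at 13.37, 13.04, 13.25 and 13.03 with apigenin. The groups were 3.07 apart at their nearest samples (-3.43 ± 0.10, adjusted p = 2.45e-14). Periostin (Postn, -1.94 ± 0.09) and the CCN family members Cyr61 (-2.55 ± 0.14), Ctgf (-2.53 ± 0.18) and Wisp1 (-2.65, with -2.09 and -3.21 in the pairs) fell too, and fibronectin (Fn1) was at 0.12 and not called. Lama5, a laminin chain of basement membranes, rose by 1.02. Of the enzymes that finish and degrade matrix, lysyl oxidase (Lox), the crosslinker of collagen and elastin, fell by 1.79 ± 0.08, and the aggrecan-cleaving proteases Adamts1 (-3.19 ± 0.09) and Adamts5 (-2.73) fell with the inhibitor Timp3 (-2.47 ± 0.10). Adamts1 stood at 12.15, 12.26, 12.29 and 12.21 untreated and at 9.13, 8.98, 8.96 and 9.08 with apigenin, with both groups tight. Of 24 proteases and inhibitors 12 fell and 6 rose, and of 25 collagen processing genes 12 fell and 5 rose.

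Ptn, a heparin-binding growth factor, fell from 11.15 to 11.44 untreated to 7.86 to 8.09 with apigenin (-3.28 ± 0.11), and Cd248, the stromal surface protein endosialin, from 13.07 to 13.31 to 10.10 to 10.57 (-2.81 ± 0.10). Both are outside the lists and were named for the width of their gap. Among the 14 fibroblast markers, 11 fell and 1 rose, with a median of -1.24; Pdgfra, a receptor of mesenchymal cells, was the member that rose (0.59) and Pdgfrb fell by 1.77 ± 0.27 (-1.20 and -2.34 in the pairs). The summed normalized counts of the list were 248632 to 264290.2 untreated and 171181 to 192197 with apigenin. In these bulk samples, fewer cells of a type and less RNA per cell cannot be told apart.

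Integrin genes changed in both directions. Itgb3, the beta 3 subunit that pairs with alpha v, stood at 7.31, 7.59, 7.74 and 7.49 untreated and at 9.66, 11.00, 9.61 and 10.96 with apigenin (2.77 ± 0.31, adjusted p = 1.74e-05). It was higher in all treated samples and highest in replicates 2 and 4. Itga2, a collagen receptor chain, had 9 to 17 reads untreated and 25, 411, 39 and 276 in apigenin replicates 1 to 4 (2.79 ± 0.65). The fibronectin receptor chain Itga5 and the alpha v chain Itgav rose by 0.81 and 0.42. Itga11, the collagen receptor chain of fibroblasts, fell by 2.41 ± 0.16 and Itga4 by 2.08, and the adhesion proteins Zyx, Parva, Tln1 and Ilk by 1.00, 0.69, 0.66 and 0.60, so that 13 of 26 fell and 7 rose.

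Of 31 contractile genes and targets of the actin-controlled factor SRF, 23 fell and none rose, with a median of -0.76 (-0.76 in replicates 1 and 3 and -0.88 in replicates 2 and 4). The LIM protein Fhl2 stood at 9.18, 9.00, 8.88 and 8.91 untreated and at 6.66, 6.36, 6.47 and 5.98 with apigenin (-2.62 ± 0.17, adjusted p = 3.67e-09), with no overlap. The adhesion adaptor Sorbs2 fell by 3.36 ± 0.17, vinculin (Vcl) by 1.22 ± 0.08, the actin crosslinker Actn1 by 1.01 ± 0.07 and smooth muscle actin (Acta2) by 0.76 ± 0.07. Acta2 was at 13.03 to 13.19 in treated and 13.77 to 14.04 in untreated samples. Transgelin (Tagln), calponin 1 (Cnn1) and desmin (Des) were at -0.00, -0.12 and 0.25 and not called, with Des at -0.26 and 0.76 in the pairs. The CArG box, the site of SRF, is its own reverse complement and was found in 1.29% of all windows. It was in 1.15% of those of genes that rose and 1.69% of those that fell. It was also in 7 of the 26 windows of this list, 6 of them of genes that fell, in a list whose members are known for that site. The windows of Fhl2 (RefSeq, GRCm38.p6, chr1:43196712-43197011, minus strand) and Vcl (chr14:20929148-20929447, plus strand) are shown with the box in capitals, since both genes had among the smallest p of the list.
Fhl2: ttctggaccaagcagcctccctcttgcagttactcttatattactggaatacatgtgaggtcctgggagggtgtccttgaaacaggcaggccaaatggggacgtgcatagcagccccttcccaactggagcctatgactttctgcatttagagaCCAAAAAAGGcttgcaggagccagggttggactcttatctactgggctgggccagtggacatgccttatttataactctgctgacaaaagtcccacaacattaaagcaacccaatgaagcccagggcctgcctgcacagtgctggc
Vcl: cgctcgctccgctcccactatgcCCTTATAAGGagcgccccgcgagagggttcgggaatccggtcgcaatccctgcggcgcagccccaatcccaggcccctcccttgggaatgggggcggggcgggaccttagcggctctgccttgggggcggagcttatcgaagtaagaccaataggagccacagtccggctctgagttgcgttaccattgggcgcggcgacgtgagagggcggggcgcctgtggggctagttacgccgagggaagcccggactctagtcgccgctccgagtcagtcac

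YAP and TEAD, which also read the state of the actin cytoskeleton, had 10 of 17 listed genes fall and 3 rise. Amotl2, a feedback inhibitor of YAP, stood at 11.25 to 11.39 untreated and at 9.68, 8.10, 9.60 and 8.04 with apigenin (-2.47 ± 0.35, adjusted p = 0.000213), lowest in replicates 2 and 4. Ankrd1, a muscle ankyrin repeat protein, fell by 1.69 ± 0.40, from 6.38 to 6.95 down to 6.09, 4.08, 5.76 and 3.94. Yap1 itself was at -0.07 and not called, Tead1 fell by 1.06 and Tead4 rose by 1.08 ± 0.22. The TEAD site GGAATG on either strand was present in 11.8% of all windows, 10.2% of those of genes that rose and 14.9% of those that fell. Among changes of at least 1 the shares were 11.2% and 16.9%. It was in 10 of 13 in this list, which was put together for this pathway. Of these 10, Wwtr1 rose (0.24), Yap1 and Axl were not called and the others fell. The windows of Ankrd1, with 2 copies (RefSeq, GRCm38.p6, chr19:36119795-36120094, minus strand), and Amotl2, with 1 on the other strand (chr9:102717554-102717853, plus strand), are shown with the sites in capitals.
Ankrd1: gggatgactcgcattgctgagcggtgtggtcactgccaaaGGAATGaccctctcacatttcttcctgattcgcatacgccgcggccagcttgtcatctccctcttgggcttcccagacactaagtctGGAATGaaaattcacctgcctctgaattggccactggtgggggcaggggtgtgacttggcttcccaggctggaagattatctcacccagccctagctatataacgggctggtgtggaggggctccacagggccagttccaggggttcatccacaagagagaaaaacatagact
Amotl2: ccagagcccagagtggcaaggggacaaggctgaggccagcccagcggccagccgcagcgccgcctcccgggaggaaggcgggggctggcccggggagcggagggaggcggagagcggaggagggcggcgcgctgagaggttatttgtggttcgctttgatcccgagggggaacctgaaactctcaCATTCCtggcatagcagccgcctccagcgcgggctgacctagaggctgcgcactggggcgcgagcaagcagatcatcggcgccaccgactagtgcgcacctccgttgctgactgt

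Most of the listed tubulin and microtubule genes fell, as did most of the contractile and SRF target genes. Of 19 tubulin and microtubule genes 13 fell and 2 rose, with a median of -0.47. Tubb3, an isotype best known from neurons, fell by 3.68 ± 0.33 from 6.89 to 7.37 down to 2.53 to 4.19 (-3.15 and -4.22 in the pairs), and Tubb2b by 1.82 ± 0.11, with its treated samples at 8.12 to 8.46 and its untreated ones at 9.97 to 10.27. Tuba1a fell by 2.64 ± 0.32, more in replicates 2 and 4 (-3.32) than in replicates 1 and 3 (-1.95). Tuba1c (0.72) and gamma tubulin (Tubg1, 0.71) rose. Alpha tubulin genes are near-identical in places, so how their shared reads were divided is uncertain.

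In Wnt, BMP, TGF-beta and growth factor pathways more genes fell than rose, except in the IGF and insulin list. Of 27 Wnt genes 13 fell and 5 rose, of 20 BMP and ID genes 10 fell and 1 rose, of 24 PDGF, FGF and VEGF genes 9 fell and 4 rose, of 19 TGF-beta genes 9 fell and 4 rose, and of 24 IGF and insulin genes 7 fell and 7 rose. In the Wnt pathway, the secreted antagonist Dkk2 stood at 9.30, 9.32, 9.29 and 9.18 untreated and at 6.27, 6.00, 6.29 and 5.82 with apigenin (-3.18 ± 0.15, adjusted p = 5.67e-11). Its groups were tight and far apart. The antagonists Sfrp1 (-1.77 ± 0.12) and Dkk3 (-1.44) and the intracellular inhibitors Nkd2 (-2.39) and Nkd1 (-3.56 ± 0.50, with -3.03 and -4.10 in the pairs and 2 to 10 reads in apigenin libraries) fell as well, as did the feedback target Axin2 (-2.43 ± 0.39) and the receptors Fzd1, Fzd2 and Fzd7 (-0.92, -1.93 and -0.71). Lef1, a transcription factor of the pathway, rose by 1.34 ± 0.35 and beta-catenin (Ctnnb1) was at -0.08 and not called.

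In the BMP pathway, the ligand Bmp4 stood at 10.53, 10.33, 10.39 and 10.25 untreated and at 8.49, 7.43, 8.58 and 7.09 with apigenin (-2.48 ± 0.27, adjusted p = 8.43e-06), lowest in replicates 2 and 4. The antagonists Nog (-2.77 ± 0.56) and Bmper (-1.20) fell together with it, as did the targets Id4 (-2.74 ± 0.27) and Id3 (-0.87), and Id1 rose by 0.39. Nog had 1 to 15 reads in apigenin libraries. The TGF-beta ligands changed in opposite directions, with Tgfb1 up by 1.48 ± 0.12 and Tgfb2, Tgfb3 and Inhba, an activin subunit, at -1.52 ± 0.11, -0.77 and -1.64 ± 0.11. The co-repressor Tgif1 rose by 2.04 ± 0.25, from 8.54 to 8.72 untreated to 10.06, 11.29, 10.07 and 11.25. The growth factor Igf1 and its binding protein Igfbp5 fell by 2.23 ± 0.28 and 3.05 ± 0.31, with Igfbp5 at -2.34 and -3.75 in the pairs. The adaptors of the insulin receptor split, with Irs1 at -1.69 ± 0.19 and Irs2 at 1.28, and the FOXO target Sesn3 rose by 1.46 ± 0.17. The receptor Fgfr2 and the ligand Pdgfc fell by 1.42 ± 0.14 and 1.28 ± 0.13. Met, the receptor of hepatocyte growth factor, rose by 1.60 ± 0.18.

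Early response factors rose, more in apigenin replicates 2 and 4 than in 1 and 3. Of 21 genes 11 rose and 3 fell, with a median of 0.69 over all 4 libraries, 0.38 in replicates 1 and 3 and 1.31 in replicates 2 and 4. Nr4a3, an orphan nuclear receptor, had 2, 5, 8 and 17 reads untreated and 35, 272, 46 and 158 with apigenin (3.49 ± 0.44, adjusted p = 1.34e-05). Its untreated samples alone averaged below the filter, so it was tested only because treated samples were high. The AP-1 subunits Fosl1 (1.86 ± 0.21) and Junb (1.82, with 1.18 and 2.45 in the pairs) rose, Fos was at -0.44 (-1.24 and 0.35 in the pairs) and not called, and the Krüppel-like factors Klf2 (-3.07 ± 0.36), Klf4 (-1.18) and Klf6 (-0.88) fell while Klf10 rose by 1.44. Of 25 feedback regulators of MAP kinases and G proteins 9 rose and 6 fell. The phosphatases Dusp4 (1.22 ± 0.15) and Dusp6 rose, the latter from 6.49 to 6.82 untreated to 8.20, 9.86, 8.29 and 9.83 with apigenin (2.36 ± 0.34). Spry1, an inhibitor of receptor tyrosine kinases, fell by 3.11 ± 0.19, and the G protein regulator Rgs4 from 10.97 to 11.19 down to 7.81, 6.09, 8.09 and 6.45 (-3.97 ± 0.39).

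Of 32 genes of the ATF4 programme, which supplies amino acids under stress, 12 rose and 8 fell. Their median was 0.09, with pair medians of -0.05 and 0.32, and 0.00 to 0.21 when 1 library was left out. The cytokine Gdf15 (2.44 ± 0.51), the pseudokinase Trib3 (1.62 ± 0.30), Atf3 (1.63 ± 0.37) and Cebpb (1.66) rose. In the pairs Gdf15 was at 1.71 and 3.18 and Atf3 at 0.92 and 2.35. Gdf15 had 9 to 15 reads in untreated libraries. The proline enzyme Pycr1 fell by 1.87 ± 0.19 and the serine enzyme Psat1 by 0.40, and asparagine synthetase (Asns, 0.13), Atf4 (-0.11) and Ddit3, which encodes CHOP (0.41 ± 0.20), were not called. Trib3 stood at 6.30 to 6.82 untreated and at 7.35, 8.86, 7.61 and 8.79 with apigenin, highest in replicates 2 and 4. The ATF4 composite site TGATGNAA on either strand was in 2.05% of all windows, 1.85% of those of genes that rose and 2.38% of those that fell. It was in 8 of 28 of this list, which was put together for this programme. Of these, 4 were of genes that rose and 2 of genes that fell. That of Trib3 begins 14 bases after the start and is in capitals (RefSeq, GRCm38.p6, chr2:152344011-152344310, minus strand).
Trib3: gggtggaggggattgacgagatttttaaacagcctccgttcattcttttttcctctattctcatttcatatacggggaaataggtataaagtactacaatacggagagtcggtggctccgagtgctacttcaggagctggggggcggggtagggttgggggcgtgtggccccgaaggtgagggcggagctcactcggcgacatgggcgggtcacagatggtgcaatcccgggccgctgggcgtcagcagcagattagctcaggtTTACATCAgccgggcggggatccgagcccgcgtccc

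Of 20 cytosolic tRNA synthetases 12 fell and 2 rose, by small amounts, with a median of -0.33, and threonyl, glutamyl-prolyl and isoleucyl enzymes (Tars, Eprs and Iars) fell by 0.75, 0.70 and 0.63. Of 22 genes of endoplasmic reticulum chaperones and the unfolded protein response 7 rose and 3 fell. Hspa5, the main chaperone BiP of this compartment, stood at 12.47 to 12.70 untreated and at 12.44, 13.25, 12.37 and 13.30 with apigenin (0.29 ± 0.19, adjusted p = 0.214). Xbp1, a transcription factor of the unfolded protein response, fell by 0.83 ± 0.11. Of 20 heat shock genes 7 rose and 5 fell, the falls near the share over all genes (23.2%). Hsph1 was at 1.13 ± 0.09, the small heat shock proteins Hspb8 and Cryab at 0.92 and -1.51, and the near-identical pair Hspa1a and Hspa1b at 1.40 and 0.69. In the pairs Cryab was at -2.03 and -0.98 and Hspa1a at 0.89 and 1.91. Of 31 proteasome subunits 6 rose, a share below that of all genes, and 3 fell, with Psmd11 at 0.66 and Psma7 at 0.53.

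Lysosomal genes rose in 11 of 28 members and fell in none, by modest amounts (median 0.17). The galactosidase Gla rose by 1.46 ± 0.12, the sialidase Neu1 by 0.80 ± 0.10, the proton pump subunit Atp6v1a by 0.69 and the transcription factor Tfe3 by 0.58. Rragd, a GTPase that tethers mTORC1 to the lysosome, stood at 8.06, 8.44, 8.51 and 8.30 untreated and at 10.24, 10.47, 10.11 and 10.36 with apigenin (1.97 ± 0.11, adjusted p = 6.83e-10). Fnip2, a partner of folliculin in the same nutrient-sensing pathway, stood at 9.02, 9.03, 9.26 and 9.30 and at 11.13, 10.89, 11.00 and 10.90 (1.83 ± 0.11). In both genes all treated samples were about equally high. Of 24 autophagy genes 10 rose and 4 fell, the kinase Ulk1 by 1.06 and the ubiquitin-like Gabarapl1 by 1.05 among the rises, and Map1lc3b (-0.48) and Atg3 (-0.69) among the falls.

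In energy metabolism, the glucose carrier Slc2a1 rose by 1.89 ± 0.25, from 8.34 to 8.50 untreated to 9.68, 10.89, 9.74 and 10.88, and the lactate carrier Slc16a1 by 0.92. Of 20 glycolysis genes 8 rose and 2 fell, with pyruvate kinase (Pkm) and aldolase A (Aldoa) up by 0.55 and 0.49. Hypoxia targets moved in both directions, 6 of 12 up and 5 down, with the growth factor Vegfa at 0.83 ± 0.12, the peptide hormone Adm at -2.26 ± 0.30 (-1.53 and -2.99 in the pairs) and Hif1a itself at -0.80 ± 0.12. Oxidative phosphorylation subunits fell in 15 of 60 members, which is 25.0% against a background of 23.2%, and rose in 1, with a median of -0.12 (-0.14 to -0.07 with 1 library left out). Complex II divided, with Sdha and Sdhb down by 0.54 and 0.44 and Sdhd up by 0.49. Cytosolic ribosomal protein genes had a median of 0.06 (0.01 to 0.11 with 1 library left out), with 9 of 60 up and 1 down, all by under 0.4. Many have pseudogene copies. Untreated replicate 1 had the highest untreated level in 53 of these 60.

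Of 32 genes of the interferon response and antigen presentation 15 fell and 3 rose. Ifit3, an interferon-induced antiviral protein, stood at 7.80, 8.03, 7.98 and 7.98 untreated and at 4.59, 2.65, 4.91 and 2.75 with apigenin (-4.22 ± 0.58, adjusted p = 3.2e-05), with 6 to 39 reads in treated libraries. The ubiquitin-like Isg15 fell by 3.29 ± 0.42, the RNA sensor Ddx58 by 1.26 ± 0.14, and Irf9, a factor that drives the programme, by 1.23 ± 0.14. Among members that serve antigen presentation, the peptide transporter Tap1 rose by 1.35 (0.76 and 1.94 in the pairs of libraries), B2m fell by 0.36, and H2-K1 and H2-D1, uncertain as close relatives, were at 0.07 and 0.08 and not called. Of 15 NF-kB genes 2 rose (Nfkbiz and Nfkb2, by 0.86 and 0.77) and 2 fell, among them the inhibitor Tnfaip3 (-1.28 ± 0.32).

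Of 19 genes of cytokines, chemokines and prostaglandin synthesis 6 rose and 6 fell, with a median of -0.43, pair medians of -0.07 and -0.61, and -0.53 to -0.23 when 1 library was left out. Ptgs2, the inducible cyclooxygenase, stood at 8.20, 8.30, 8.46 and 8.53 untreated and at 10.30, 10.81, 10.06 and 10.99 with apigenin (2.17 ± 0.16, adjusted p = 4.4e-08), and the synthase Ptges rose by 0.80. Hpgd, the dehydrogenase that inactivates prostaglandins, had 104, 169, 210 and 250 reads untreated and 8, 3, 14 and 1 with apigenin (-5.02 ± 0.48, adjusted p = 4.79e-07). No treated sample came near an untreated one in either gene. The chemokines Ccl2 (-2.04 ± 0.24), Ccl7 (-2.03, with -1.32 and -2.75 in the pairs) and Cxcl12 (-1.20, with -0.53 and -1.87) and the alarmin Il33 (-2.50 ± 0.48) fell, Lif and Cx3cl1 rose by 0.97 and 1.73, the latter with 1.13 and 2.32 in the pairs, and Il6, with at most 7 reads in a library, was too rare to compare.

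Mitosis genes had the widest difference in median between the pairs of apigenin libraries among the 57 lists. Of 39 genes 2 rose and none fell over all 4 libraries, with a median of -0.10, and the median was 0.66 in replicates 1 and 3 and -0.83 in replicates 2 and 4. In 35 of the 39 genes both replicates 2 and 4 were below both replicates 1 and 3. Mki67, a marker of cycling cells, stood at 8.90, 8.59, 8.65 and 8.71 untreated and at 9.61, 7.65, 9.23 and 7.74 with apigenin (-0.15 ± 0.39, adjusted p = 0.776), so that the untreated samples lay between the pairs. Cyclin B1 (Ccnb1) divided in the same way, from 6.04 to 6.52 untreated to 7.71, 5.69, 7.33 and 5.77 (0.37 ± 0.38, not called). Of 37 replication genes 9 rose and 2 fell, the rises near the share over all genes (23.0%). Among them the uracil glycosylase Ung was at 2.30 ± 0.47 (1.69 and 2.92 in the pairs) and the helicase subunit Mcm2 at 0.92. Ung stood at only 1.44 to 3.40 untreated, and these samples alone averaged below the filter. Its 1.44, in untreated replicate 1, was within the 3 reads allowed for a count of 0. The licensing factor Cdt1 rose by 1.87 ± 0.22 and the kinetochore gene Spc25 by 1.92 ± 0.20 in both pairs (1.49 and 2.36). Among regulators of the G1 phase, the inhibitor Cdkn1c fell from 9.46 to 9.64 to 6.89 to 7.27 (-2.47 ± 0.17), cyclin D1 (Ccnd1) by 0.76 ± 0.12 and its partner Cdk4 by 0.83. Cdkn1a, a p53 target that stops the cycle, was at 0.11 ± 0.07 and not called. Myc, a driver of growth, fell by 0.36 ± 0.14, and its call was lost without untreated replicate 2, 3 or 4 (-0.40, -0.31 and -0.35) or apigenin replicate 2 or 4 (-0.31 each).

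Of 24 genes of p53 and its targets 9 rose and 4 fell, with a median of 0.23 and pair medians of 0.02 and 0.35. Gadd45a, a growth arrest gene, stood at 7.71, 8.09, 8.34 and 8.15 untreated and at 10.14, 11.09, 10.12 and 11.15 with apigenin (2.56 ± 0.23, adjusted p = 1.11e-06), highest in replicates 2 and 4. Mdm2, the ligase that degrades p53, rose by 1.24 ± 0.12. In the BCL2 family 5 of 13 rose and none fell, among them the protective Bcl2l1 (0.89) and Bcl2l2 (0.64) and the death-promoting Bad (0.92) and Bcl2l11 (0.57).

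**Figure D4:**
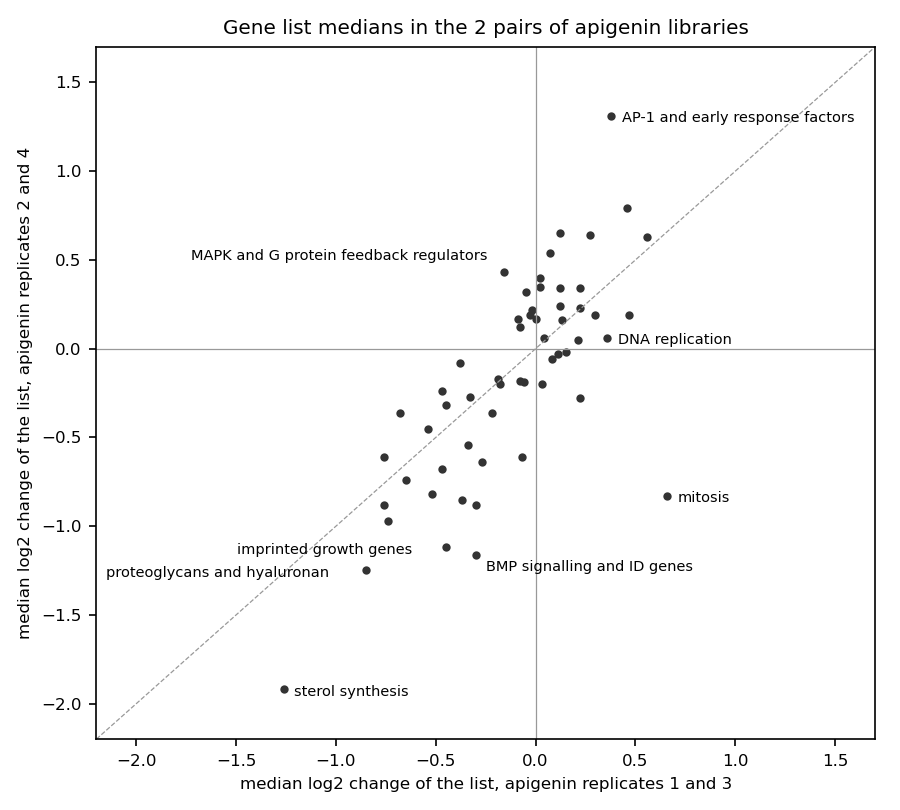
Median log2 change of each of 57 gene lists in apigenin replicates 1 and 3 (horizontal axis) and in replicates 2 and 4 (vertical axis), each against the 4 untreated samples, 1 point per list, with the line of equal values dashed. Mitosis lies at 0.66 and -0.83, sterol synthesis at -1.26 and -1.92, and early response factors at 0.38 and 1.31.

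Imprinted genes that control fetal growth fell in 12 of 17 members and rose in 1. Mest stood at 11.36, 11.00, 11.04 and 11.08 untreated and at 8.18, 6.54, 7.96 and 6.64 with apigenin (-3.79 ± 0.33, adjusted p = 3.31e-06), low in all and lowest in replicates 2 and 4. The growth inhibitors Grb10 and Cdkn1c fell by 1.60 ± 0.16 and 2.47, the noncoding RNAs H19 and Meg3 by 1.26 (-0.59 and -1.94 in the pairs) and 0.74, and Nap1l5 rose by 2.25 ± 0.53. Of 22 mesenchymal transcription factors 10 fell and 2 rose. The homeobox gene Meox2 had 84 to 157 reads untreated and 3 to 16 with apigenin (-3.76 ± 0.46, with -3.25 and -4.26 in the pairs), Osr1 fell by 2.55 ± 0.38 (-1.70 and -3.40) and Twist1 by 0.72 ± 0.12. The splicing factors called SR proteins and their kinases fell in 12 of 18 members and rose in none, among them Srsf6 at -0.86 ± 0.13, Srsf3 at -0.85 ± 0.12 and the kinase Srpk2 at -0.37. The histone deacetylases Hdac2 (-1.03 ± 0.14) and Hdac9 (-1.70 ± 0.27) fell, and Hdac4 (1.01) and Hdac6 (0.88) rose. Of 18 clock genes 6 rose and 3 fell, with the repressors Bhlhe40 and Nr1d1 up by 1.27 ± 0.11 and 0.79 ± 0.13 and Per2 down by 1.38.

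**Figure D5:**
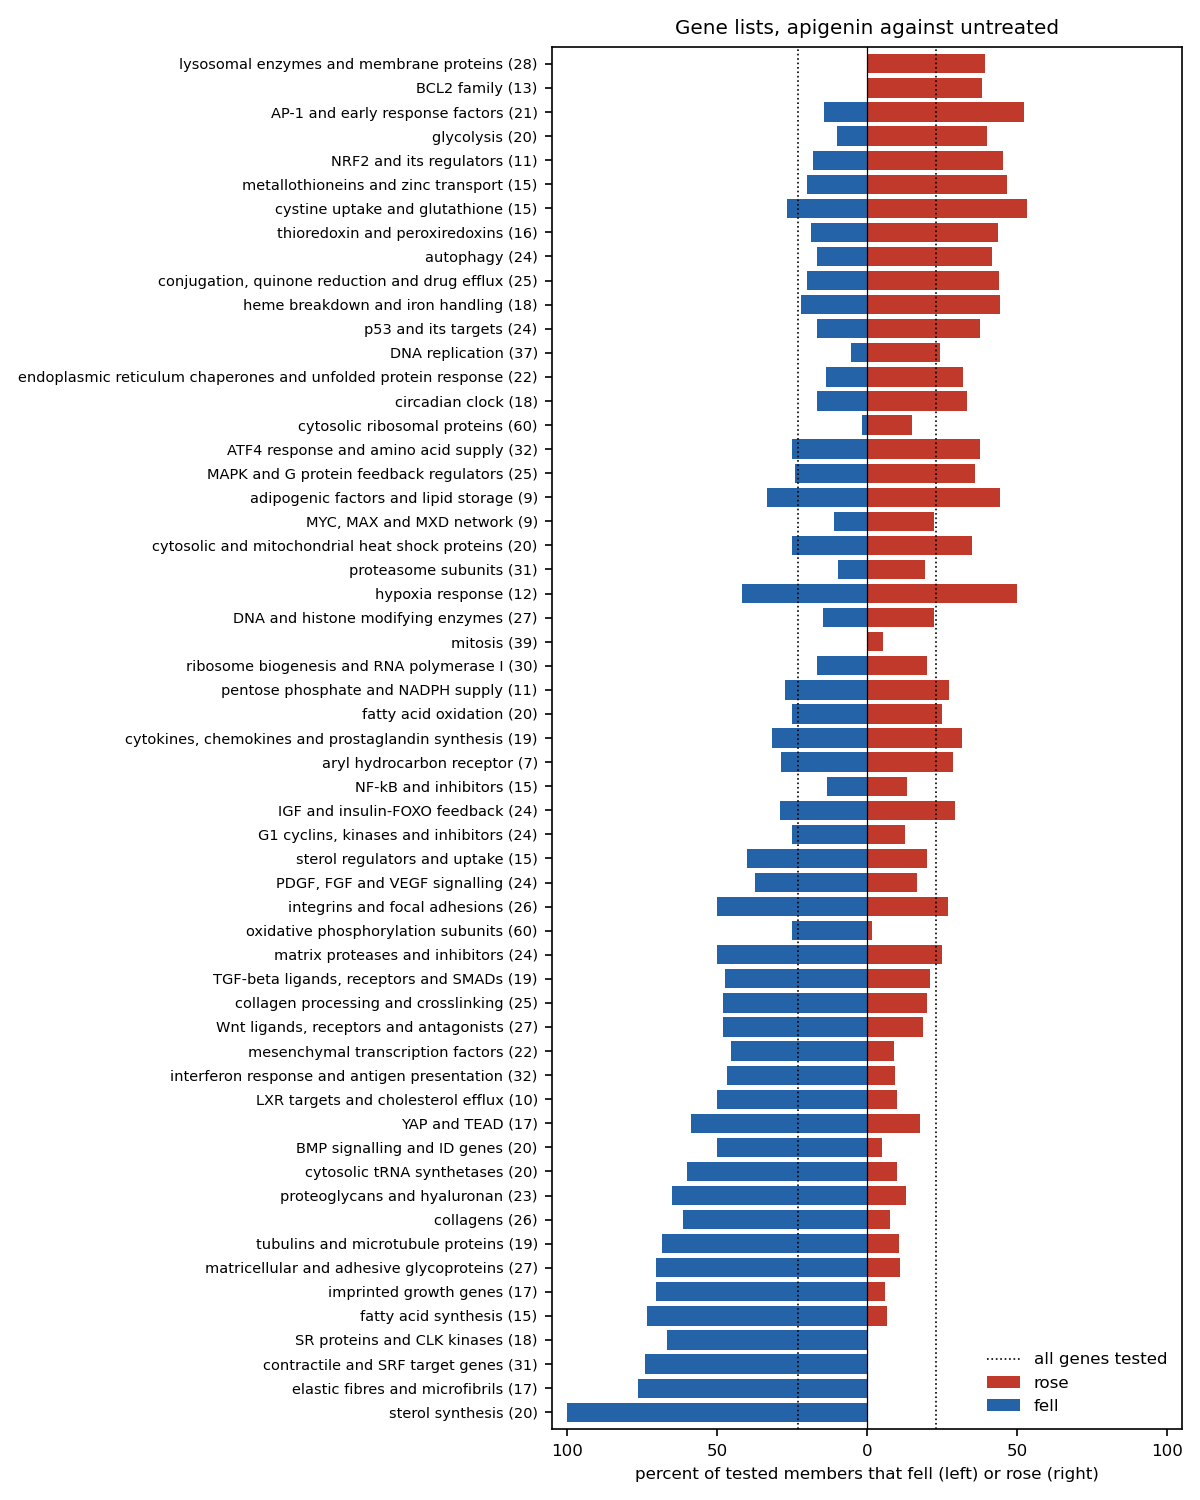
Percent of the tested members of each gene list that rose (red, right) or fell (blue, left) with apigenin, with the number tested in brackets, and dotted lines at the shares over all genes tested (23.0% and 23.2%). Sterol synthesis reaches 20 of 20 to the left, while no list reaches beyond 8 of 15 to the right.

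Against chrysin, 50.7% of the genes differed from apigenin in either direction, with 3011 higher and 3179 lower with apigenin. Of the 12 rises with the widest gap, 10 were higher with apigenin than with chrysin, most of all Itgb3 (2.27), Tmem140, a membrane protein (2.14), Mt1 (2.04) and Mt2 (1.98), and Gclm and Fnip2 were not called (0.03 and -0.07). The mean with chrysin lay near that with apigenin in Slc7a11 (6.87 untreated, 10.39 with chrysin and 10.81 with apigenin). In Tmem140 it lay near the untreated mean (7.74, 7.94 and 10.08). Of the 12 falls, 10 were lower with apigenin, most of all Thbs1 (-2.78), Rgs4 (-2.37) and Cemip (-2.34), and Aspn (-0.49) and Lrrc17 (0.29) were not called. In other genes the order was reversed, with Ptgs2 at -1.35 and Nr4a3 at -2.90 against chrysin. These genes were chosen for their difference between apigenin and untreated samples, and the fit shares the apigenin samples between both comparisons.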

How the data were processed

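RNA of 12 samples, 4 per group, was sequenced from stranded mRNA libraries, per the labels' protocols. The submitters' processing notes name cutadapt, FastQC, STAR, HTSeq, DESeq2 and the build mm9, and the strand setting of the counting was not stated, so antisense and overlapping genes are uncertain. The deposited table holds log2 values of normalized counts plus 1 that the authors made for 24458 genes. Of these values, 99.966% to 100.0% per sample came out as whole reads within 0.05 of a read, checked on genes of up to 500 reads, which gave library totals of 4298640 to 15512632. The filter kept genes that averaged 10 or more normalized counts across all 12 samples. A gene that was low in 1 group could therefore pass it through the others. Spreadsheet dates in 27 gene names were restored from the gene identifiers.

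A limma model (version 3.58.1, R 4.3.3) with 3 group means over the 12 samples, with a variance trend and robust estimation, was tested on simulated data. P-values were adjusted by Benjamini-Hochberg over 12198 genes. Replicate numbers were not taken to pair samples, since deviations of same-numbered untreated and apigenin samples correlated at -0.07 to 0.10. Promoter windows and their coordinates come from RefSeq (GRCm38.p6), not from the deposited files.

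The genes and lists were chosen with earlier results of these data known. Named by rule were the 12 called genes per direction with the widest gap between groups among those with a mean level of at least the median of the tested genes (7.92), the up to 4 members of each list with the smallest p, called or not, and a set of key genes. Others were named after their values were seen. Not all genes that the rule names are printed, and some are not reported here. Alternatives covered normalization, filter, pseudocount, variance model, samples in the fit, threshold, apigenin libraries, replicate block and each replicate left out. A log2 change with the pseudocount of 1 understates changes of genes with few reads.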

Additional observations from a re-analysis of the deposited data

Results flagged for a closer look

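The untreated and the apigenin group were each looked at in 289 genes named above. In 40 cases 1 of the 4 samples of a group lay far from the other 3, by Dixon's test at 95%. Chance flags about 1 in 20 groups, and over all tested genes 6.45% of untreated and 3.06% of apigenin groups were marked. Untreated groups of the named genes were marked more often than over all genes. Most of the cases, 24, concerned untreated replicate 1.

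Untreated replicate 1 was high in genes of lipid synthesis, with Acly at 12.19 (others 11.85 to 11.89), Idi1 at 9.78, Lss at 10.60 and Dhcr7 at 9.79. It was also high in the amino acid genes Asns (10.11) and Iars (11.04), in Idh1 (11.34) and Pkm (13.73), in the matrix genes Eln (11.42) and Wisp1 (11.19), and in Tubb2b (10.27) and H19 (14.10). The same library was low in the cholesterol exporter Abca1 (9.24, others 10.13 to 10.23) and in Tmem140 (6.99, others 7.90 to 8.04). Further low values there were Abcc4 at 7.60, Gla at 8.51, Sod3 at 9.86, Bach2 at 6.35, Irs2 at 6.85 and Klf6 at 11.54. Col4a1 (12.00), Cxcl12 (11.92), Ccnd1 (12.10) and Tap1 (6.76) were low in it as well. Of these genes, those called above were also called without this library.

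Among the other untreated samples, replicate 2 was low in Apoe (9.99), replicate 3 was high in Atf3 (5.00) and low in Ahrr (7.69) and Slc39a8 (6.41), and replicate 4 was low in Ccl2 (8.03) and Sfrp1 (9.85). With apigenin, replicate 1 was high in Cbr3 (7.55) and low in Mt2 (12.07), replicate 2 was low in Sc5d (8.87) and replicate 4 was low in Sod2 (8.53). Apigenin replicate 3 was high in Id1 (8.86) and Tfrc (7.07) and low in Bcl2l11 (7.76), Itga4 (3.85), Slc16a1 (8.73) and Twist1 (8.48). The division of the apigenin libraries into 2 pairs is not of a kind that this test marks.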

How the results depend on the processing

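The number of genes called against untreated, 5631, was 4326 to 6700 under the settings tried, except for 3910 at an adjusted p under 0.01 and 1800 (738 higher and 1062 lower) with a required change of at least 1. Under quantile normalization 3167 rose and 2745 fell, and limma-voom on the recovered reads called 6239. With the replicate block 5481 genes were called, 5368 of them also called without it in the same direction; the replicate numbers were not shown to pair samples. Apigenin replicates 1 and 3 alone called 4326 genes, 3833 of them shared, and replicates 2 and 4 alone 6700, 5193 of them shared. From replicates 1 and 3 alone Mki67 was at 0.713, and the medians of the mitosis list and of the MAPK and G protein feedback list were 0.66 and -0.16, opposite in sign to all 4 libraries. With each replicate left out in turn the mitosis median ranged from -0.37 to 0.21. The cause was not tested. Calls lost with replicates 1 and 3 alone were those of Atf3, Bcl2l11, Cd14, Cd44, Hspa1a, Hspa1b, Ireb2, Itgav, Lif, Meg3, Myc, Psat1, Srpk2 and Tfrc. With replicates 2 and 4 alone that of Id1 was lost, under quantile normalization those of B2m and Meg3, with no filter that of Myc and with a pseudocount of 0.25 that of Cd14. Calls were also gained, in named genes not called in the main fit. There were 8 with replicates 2 and 4 alone, 5 under quantile normalization and 4 with replicates 1 and 3 alone. Without apigenin replicate 1 or 3 there were 2 each. Genes with few reads, such as Hpgd, Ifit3 and Nkd1, have changes limited by depth.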
